A study of Mus musculus with 7 samples.

Results

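Ccl2, Ccl7, Ccl8 and Ccl12 encode the CC chemokines that draw monocytes, and they were chosen by name as 4 of the 25127 genes counted in CD11b+ enriched cells of C57/Bl6 mice. The series set naive mice beside mice that carried LLC, a transplantable Lewis lung carcinoma line, with tumors at day 14. Each state gave a blood, a bone marrow and a spleen library, and the tumor-bearing state also a tumor tissue library, so that 7 groups had 1 library each. RNA and surface antibody tags were read in the same single cells. All groups shared the strain and the CD11b enrichment, which favours myeloid cells over LLC cells, fibroblasts and lymphocytes. The labels did not say how many animals a library held or which tissues came from the same animal. With 1 library per group there was no replicate error and no test between groups. Intervals in parentheses cover counting error only, at 95%.

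CC chemokines are small secreted proteins named after 2 neighbouring cysteines near their start. Those that act on the receptor CCR2 draw classical monocytes out of the bone marrow and into inflamed tissue and tumors, where monocytes and macrophages themselves make more of the same ligands. Ccl2 is the best known CCR2 ligand, Ccl7 acts on CCR2 and also on CCR1 and CCR3, Ccl12 is a mouse CCR2 ligand close to Ccl2, and mouse Ccl8 is known as a ligand of CCR8. Their transcription is known to follow NF-kB and AP-1 signals, and type I interferon also induces several of them in myeloid cells.

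The 4 genes stood side by side on 1 strand of chromosome 11, within 81223 bases. On the plus strand of GRCm38 they were Ccl2 at chr11:82035577-82037452, Ccl7 at chr11:82045712-82047525, Ccl12 at chr11:82101845-82103399 and Ccl8 at chr11:82115185-82116799. Ccl11 lay between Ccl7 and Ccl12, and Ccl1 followed Ccl8 on the minus strand. The stretch of 48 coding bases around the paired cysteines, from the GENCODE M21 transcripts, shows how alike the members are in the part that gives the family its name. Capitals mark the 2 cysteine codons, which occurred next to each other once in each coding sequence.
Ccl2: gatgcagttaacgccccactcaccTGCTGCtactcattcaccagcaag
Ccl7: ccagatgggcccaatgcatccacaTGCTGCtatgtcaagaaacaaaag
Ccl12: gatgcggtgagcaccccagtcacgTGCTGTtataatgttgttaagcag
Ccl8: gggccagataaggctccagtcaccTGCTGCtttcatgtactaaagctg
Over the aligned coding sequences the pairs were between 64.6% identical (Ccl7 and Ccl8) and 70.8% identical (Ccl8 and Ccl12). The longest unbroken run that any pair shared over the whole transcript was 23 bases (Ccl2 and Ccl7), and within the last 300 bases, where 3' chemistry reads, it was 13 bases (Ccl8 and Ccl12). The members are thus related genes whose transcript ends shared no long identical stretch.

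RefSeq promoters were at hand for Ccl12 and Ccl8, 2 of the 4 members. They are printed because Ccl12 and Ccl8 are neighbours on the chromosome whose levels in the tumor are compared below. The windows are the 250 bases before each start on the plus strand of GRCm38.p6, chr11:82101595-82101844 for Ccl12 and chr11:82114935-82115184 for Ccl8, with the TATAAA motif in capitals.
Ccl12: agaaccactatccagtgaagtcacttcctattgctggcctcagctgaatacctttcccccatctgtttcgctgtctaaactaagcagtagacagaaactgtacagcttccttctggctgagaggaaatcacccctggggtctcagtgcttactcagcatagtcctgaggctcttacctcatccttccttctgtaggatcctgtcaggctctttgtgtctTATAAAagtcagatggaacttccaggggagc
Ccl8: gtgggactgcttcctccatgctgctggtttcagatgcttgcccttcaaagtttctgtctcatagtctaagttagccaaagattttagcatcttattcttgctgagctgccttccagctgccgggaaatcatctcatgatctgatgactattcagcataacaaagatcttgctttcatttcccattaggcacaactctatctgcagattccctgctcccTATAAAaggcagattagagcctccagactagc
TATAAA, searched on both strands, began 31 bases before the start of Ccl12 and 32 bases before that of Ccl8, and 12.4% of 32851 promoter windows of this length held it. Over 232 aligned bases the windows were 63.4% identical. The AP-1 motif TGANTCA (6.75% of windows), the interferon-response motif by its consensus (2.98%), the STAT motif TTCNNNGAA (7.02%) and the NF-kB consensus (7.25%), on both strands, had no match in either window. These searches say only that the letters are not in these stretches.

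The libraries held from 57 counted cells (tumor-bearing bone marrow, 617821 unique molecular identifiers, UMIs, the counted molecules) to 1917 cells (tumor tissue, 20844058 UMIs), and median UMIs per cell lay between 8841 and 12445. Levels below are UMIs scaled to 1000000 UMIs of a library or cluster (CPM), and 3 UMIs, the upper limit that a count of 0 allows, came to between 0.144 CPM in tumor tissue and 4.86 CPM in tumor-bearing bone marrow. Itgam, which encodes CD11b, stood at 257 to 293 CPM outside the tumor and at 561 CPM in it. In tumor tissue the 4 carcinoma markers summed to 3.07 CPM with Krt19 at 0 UMIs, the 7 fibroblast markers to 15.1 CPM with Pdgfra at 0 UMIs, and the 5 T and NK cell markers to 1.01 CPM. Barcodes shared between libraries touched 4 of 4290 cells.

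Outside the tumor, Ccl2 was the only member with more than 4 UMIs in a library. Naive mice had 19.7 CPM of it in blood (193 UMIs), 6.49 CPM in bone marrow (10 UMIs) and 4.07 CPM in spleen (18 UMIs). Tumor-bearing mice had 14.6 CPM in blood (66 UMIs), 8.09 CPM in bone marrow (5 UMIs), 2.61 CPM in spleen (15 UMIs) and 927 CPM in tumor tissue (19315 UMIs). Blood thus had the highest value outside the tumor in both states, and every library outside it lay far below the tumor tissue. The 5 UMIs of tumor-bearing bone marrow were too few to settle its order with blood.

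Ccl7 was counted once in naive blood, was at 0 UMIs in the other 5 libraries outside the tumor, and reached 378 CPM in tumor tissue (7869 UMIs). Ccl12 gave 4 UMIs in tumor-bearing blood, 1 UMI each in tumor-bearing spleen, naive blood and naive bone marrow, 0 in the other 2, and 158 CPM in tumor tissue (3286 UMIs). Ccl8 was at 0 UMIs in all 6 libraries outside the tumor and at 23.7 CPM in it (495 UMIs). In the tumor the order was Ccl2 (914 to 940), Ccl7 (369 to 386), Ccl12 (152 to 163) and Ccl8 (21.7 to 25.9), and no neighbours in that order had overlapping intervals. A 3' library counts each captured molecule once and is not divided by gene length, so this order holds for captured molecules.

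**Figure D1:**
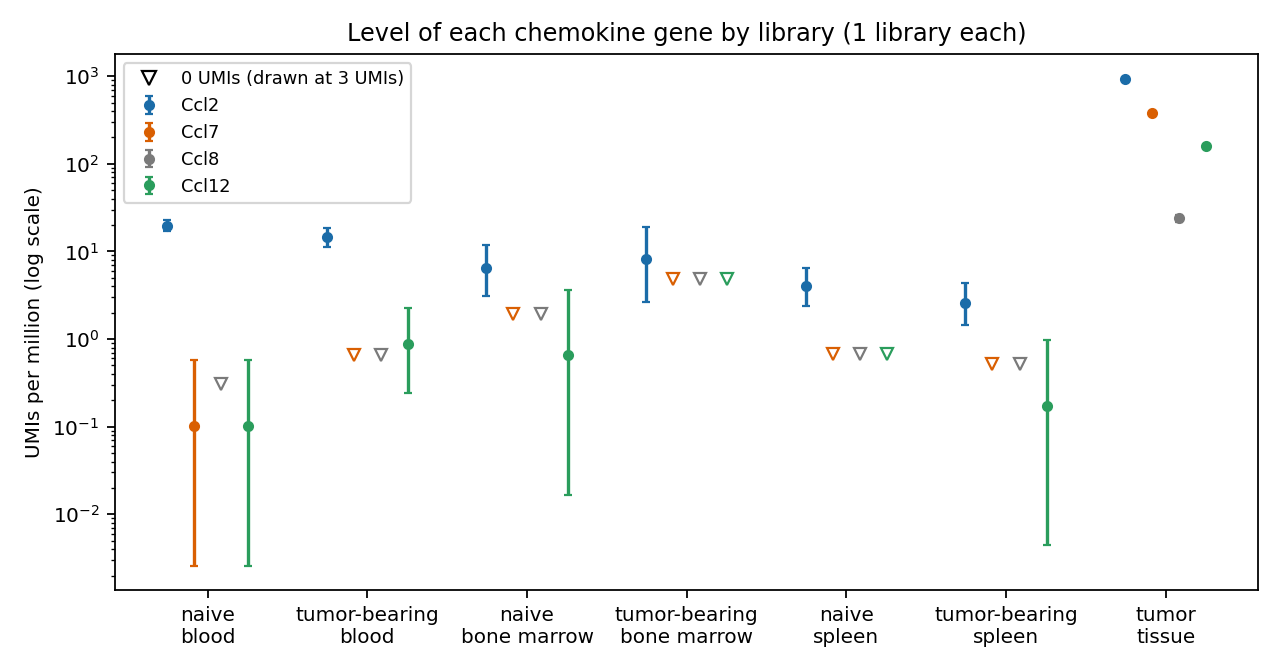
Level of each of the 4 chemokine genes in each of the 7 libraries, in CPM on a log axis, with 95% counting intervals. Open triangles mark genes with 0 UMIs, drawn at the level of 3 UMIs; the tumor tissue points lie at 927, 378, 158 and 23.7, above all others.

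Between tumor-bearing and naive mice none of the 4 members could be called in any tissue, since none reached both 30 UMIs in the pair of libraries and 20 CPM in one of them. The share of all measured genes past 2-fold in either direction was 0.698% in blood, 3.23% in bone marrow and 0.387% in spleen. Ccl2 in tumor-bearing mice was 0.739 times its naive level in blood (0.550 to 0.982), 1.25 times in bone marrow (0.334 to 4.0) and 0.641 times in spleen (0.301 to 1.35). The spleen and marrow intervals spanned no change, and the blood value moved with 1 small cluster.

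That cluster is the authors' cluster 16. In naive blood its 35 cells held 68 of the 193 Ccl2 UMIs (35.2%), 15 of them had at least 1, and their level was 157 CPM against 13.4 CPM in the other cells, 11.8-fold higher (8.63 to 15.9) and 8.51-fold without the cell that held most. Naive blood had 35 such cells of 814 and tumor-bearing blood 5 of 354. Without cluster 16 the ratio of tumor-bearing to naive blood was 0.907 (0.646 to 1.26). Within cluster 2 it was 1.53 (0.986 to 2.34), with 39 and 55 UMIs, and within cluster 0 it was 0.379 (0.162 to 0.788), with 9 and 43 UMIs. The cluster 2 interval included no change, and 1 cell held 19 of its 39 UMIs in tumor-bearing blood and 1 cell 25 of its 55 in naive blood. The direction of the blood difference within cluster 2 was therefore not settled.

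Few blood cells carried the gene at all. In naive blood 69 of 814 cells (8.48%) had a Ccl2 UMI and 9 cells held at least 50% of its UMIs, while in tumor-bearing blood 22 of 354 cells (6.21%) had one and 3 cells held that share. The richest cell had 25 UMIs in naive and 19 in tumor-bearing blood. Cluster 4 had 2 Ccl2 UMIs in 132 cells of naive blood and 0 UMIs in 64 cells of tumor-bearing blood, 66 of naive spleen and 75 of tumor-bearing spleen.

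All 8 UMIs of the other members outside the tumor fell into 5 cells, in clusters 2 and 16. The lone Ccl7 UMI of naive blood was in a cluster 2 cell that also held 25 Ccl2 UMIs, the highest count of that library. The 4 Ccl12 UMIs of tumor-bearing blood were in 1 cluster 16 cell with 11 Ccl2 UMIs, and the Ccl12 UMI of naive blood in a cluster 16 cell with 3. The Ccl12 UMIs of naive bone marrow (cluster 16) and tumor-bearing spleen (cluster 2) were in cells without Ccl2.

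Against each tissue of tumor-bearing mice, all 4 members were at least 2-fold higher in tumor tissue. Of all measured genes 10.9% were higher by that rule against blood, 10.7% against spleen and 12.2% against bone marrow. The 3 comparisons share the tumor tissue library. Ccl2 was 63.5-fold higher than in blood (49.9 to 82.2), 355-fold higher than in spleen (215 to 635) and 114.5-fold higher than in bone marrow (49.1 to 353). Ccl7, at 0 UMIs in those 3 libraries, was at least 569-fold, 724-fold and 77.7-fold higher, with the other library set to 3 UMIs. Ccl12 was 178-fold higher than in blood (69.6 to 655, 4 UMIs there), 907-fold higher than in spleen (163 to 35828, 1 UMI there) and at least 32.5-fold higher than in bone marrow. Ccl8 was at least 35.8-fold, 45.5-fold and 4.89-fold higher. The bounds are lowest in bone marrow, where the library is smallest.

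The tumor tissue cells fell into 9 clusters of the authors with at least 20 cells, which held 1909 of the 1917. Members may have been among the genes these clusters were made from, so differences between clusters are described and not tested. Cluster 11 was macrophage-like by the complement genes C1qa, C1qb and C1qc and by Folr2 and Mrc1, and its 11 macrophage markers summed to 14938 CPM against 636 to 8441 CPM in the others. Cluster 17 was dendritic cell-like (8 of 8 markers with UMIs, 6997 CPM in sum), and the other clusters are given by number. Cluster 13 held cells with a median of 1477.5 UMIs, only 7 of its 40 with 2000 or more. Its fibroblast markers summed to 390 CPM against 6.54 to 16.2 CPM in the other clusters, with Col1a1, Col1a2, Pdgfra and Pdgfrb at 0 UMIs. Its carcinoma markers were at 60 CPM (4 UMIs, in 10% of its cells) against 1.64 to 3.53 CPM elsewhere. Its CD11b tag had a median of 403 per 10000 tags of a cell against 1985 to 2360 in the other clusters, and its mitochondrial share was 4.82% against 2.67 to 3.81%. By that tag its cells went against the CD11b+ label, and the part of carried-over transcripts and of low depth in its chemokine values was not tested.

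Ccl2 stood at 2039 CPM in cluster 13 (136 UMIs, 1711 to 2412), 1705 CPM in cluster 8, 1524 CPM in cluster 10, 1100 CPM in cluster 11, 792 CPM in cluster 3, 717 CPM in cluster 5, 428 CPM in cluster 7, 131 CPM in cluster 9 and 98.2 CPM in cluster 17. Counting intervals of neighbours in this order overlapped between clusters 13 and 8 and between clusters 9 and 17, and not elsewhere. In cluster 17, 24 of the 60 UMIs were in 1 cell, and without it the level was 59.7 CPM.

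Ccl7 was more uneven. It stood at 1214 CPM in cluster 13 (81 UMIs, 964 to 1509), 866 CPM in cluster 11, 820 CPM in cluster 8, 311 CPM in cluster 10, 173 CPM in cluster 3, 51.5 CPM in cluster 5, 30.3 CPM in cluster 7, 30.2 CPM in cluster 9 and 24.5 CPM in cluster 17. Per cell this was 27.5 UMIs in cluster 11 and 9.86 in cluster 8, against 0.417 in cluster 5, 0.253 in cluster 7, 0.268 in cluster 9 and 0.273 in cluster 17. Intervals of neighbours overlapped between clusters 11 and 8 and among clusters 7, 9 and 17. The 3 lowest clusters held nearly the same number of Ccl7 UMIs per cell, whatever their Ccl2.

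Ccl12 had nearly the same order at a lower level, with 369 CPM in cluster 11, 360 CPM in cluster 13 (24 UMIs), 330 CPM in cluster 8, 217 CPM in cluster 10 and at most 37.9 CPM (cluster 3) elsewhere. Ccl8 was 90.0 CPM in cluster 13, from 6 UMIs in 6 cells, and 72.8 CPM in the macrophage-like cluster 11, from 309 UMIs. In cluster 10 it was 41.1 CPM, but 60 of those 71 UMIs were in 1 cell, and without it the level was 6.41 CPM. The remaining clusters lay between 1.64 and 10.6 CPM. Ccl8 was therefore high in cluster 11 and, on few counts, in cluster 13.

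**Figure D2:**
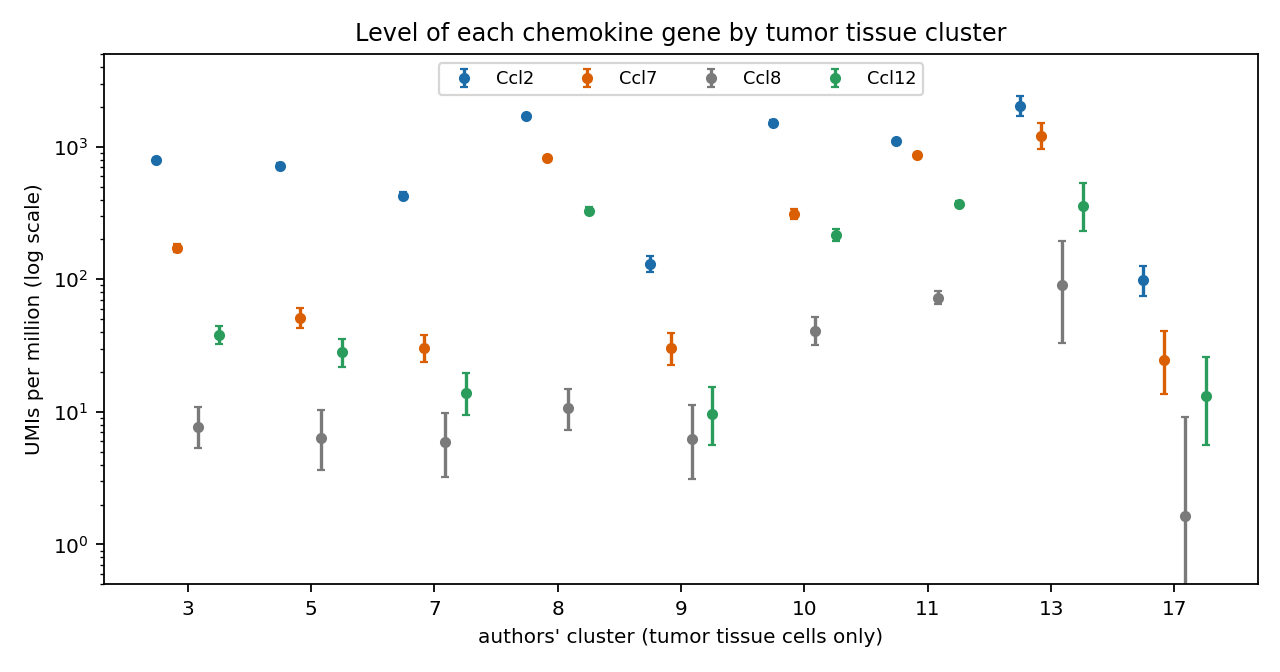
Level of each chemokine gene in the tumor tissue cells of 9 clusters, in CPM on a log axis, with 95% counting intervals. Ccl2 is at 428 or more in all clusters but 9 and 17, while Ccl7 is at 311 or more and Ccl12 at 217 or more only in clusters 8, 10, 11 and 13.

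Against all other tumor tissue cells, 10 of the 36 pairs of a member and a cluster passed 2-fold upward and 19 downward. Since the clusters came from the same cells and may have been made with these genes, nothing is read from the counts. Higher were Ccl2, Ccl7 and Ccl12 in cluster 8 (0.874% of all measured genes were higher there), Ccl7, Ccl8 and Ccl12 in cluster 11 (6.14%) and all 4 in cluster 13 (25%). Lower were Ccl7, Ccl8 and Ccl12 in cluster 3 (3.59% of genes lower) and in cluster 5 (4.4%), Ccl8 in cluster 8 (0.855%), and all 4 in clusters 7 (7.05%), 9 (8.57%) and 17 (9.87%). None of the 4 passed 2-fold in cluster 10, where 7.06% of genes were higher and 13.3% lower. In the direction with no member called, 0.362% of genes were higher in cluster 3, 0.295% in cluster 5, 1.15% in cluster 7, 3.88% in cluster 9 and 5.32% in cluster 17, and 2.88% were lower in cluster 11 and 7.6% in cluster 13. As a mean of the CPM of single cells the log2 ratio of Ccl8 in cluster 8 was -0.06, which ended that call. In cluster 10 the log2 ratio of Ccl8 went to -1.54 without its richest cell.

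The 258 cells of cluster 8 and the 134 of cluster 11 together held 51.6% of its Ccl2 UMIs, 79.1% of Ccl7, 78.9% of Ccl12 and 69.1% of Ccl8. Most Ccl8 was in cluster 11 (62.4%), while Ccl7 was split into 32.3% in cluster 8 and 46.8% in cluster 11. Cluster 11 cells had a median of 29673 UMIs, against 9451 in cluster 8, so they weigh more in such sums than by number.

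Detection in single cells followed the levels. Over the tumor tissue 1398 of 1917 cells had a Ccl2 UMI (72.9%, 70.9 to 74.9), 759 a Ccl7 UMI (39.6%), 506 a Ccl12 UMI (26.4%) and 139 a Ccl8 UMI (7.25%). With every cell thinned to 2000 UMIs, which left out 46 shallower cells, the shares were 46.1%, 18.7%, 10.5% and 2.08%. No cluster in this library is known to lack these genes, so cluster 17, lowest in CPM of Ccl2, Ccl7 and Ccl8, serves as the low mark. Unthinned, 40% of its 55 cells had Ccl2, 27.3% Ccl7, 10.9% Ccl12 and 1.82% Ccl8, at a median of 10695 UMIs per cell. The shares of Ccl7 in clusters 5 (24.4%), 7 (18.2%) and 9 (21.2%) were no higher than that mark on all counts. At 2000 UMIs they were 6.80%, 5.32% and 8.08%, against 3.64% (0.443 to 12.5) in cluster 17, whose interval holds all 3. That interval is wide, as it rests on 2 of 55 cells. By level cluster 5 was above the mark, at 51.5 CPM of Ccl7 (130 UMIs) against 24.5 CPM (15 UMIs) in cluster 17. Whether free RNA had a part in these low shares was not tested. Their medians were 8231.5, 8288 and 8782 UMIs per cell.

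At 2000 UMIs per cell the 2 leading clusters were close in some members and apart in others. Ccl2 was detected in 69.5% of cluster 8 cells (63.5 to 75.1) and 67.2% of cluster 11 cells (58.5 to 75.0), and Ccl12 in 29.3% (23.8 to 35.3) and 29.1% (21.6 to 37.6). Ccl7 was found in 40.2% (34.2 to 46.5) of cluster 8 cells and 58.2% (49.4 to 66.7) of cluster 11 cells, and Ccl8 in 1.56% (0.427 to 3.95) and 11.9% (6.98 to 18.7). Intervals thus overlapped for Ccl2 and Ccl12 and did not for Ccl7 and Ccl8. Before thinning, all 4 shares were higher in cluster 11, the deeper one.

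**Figure D3:**
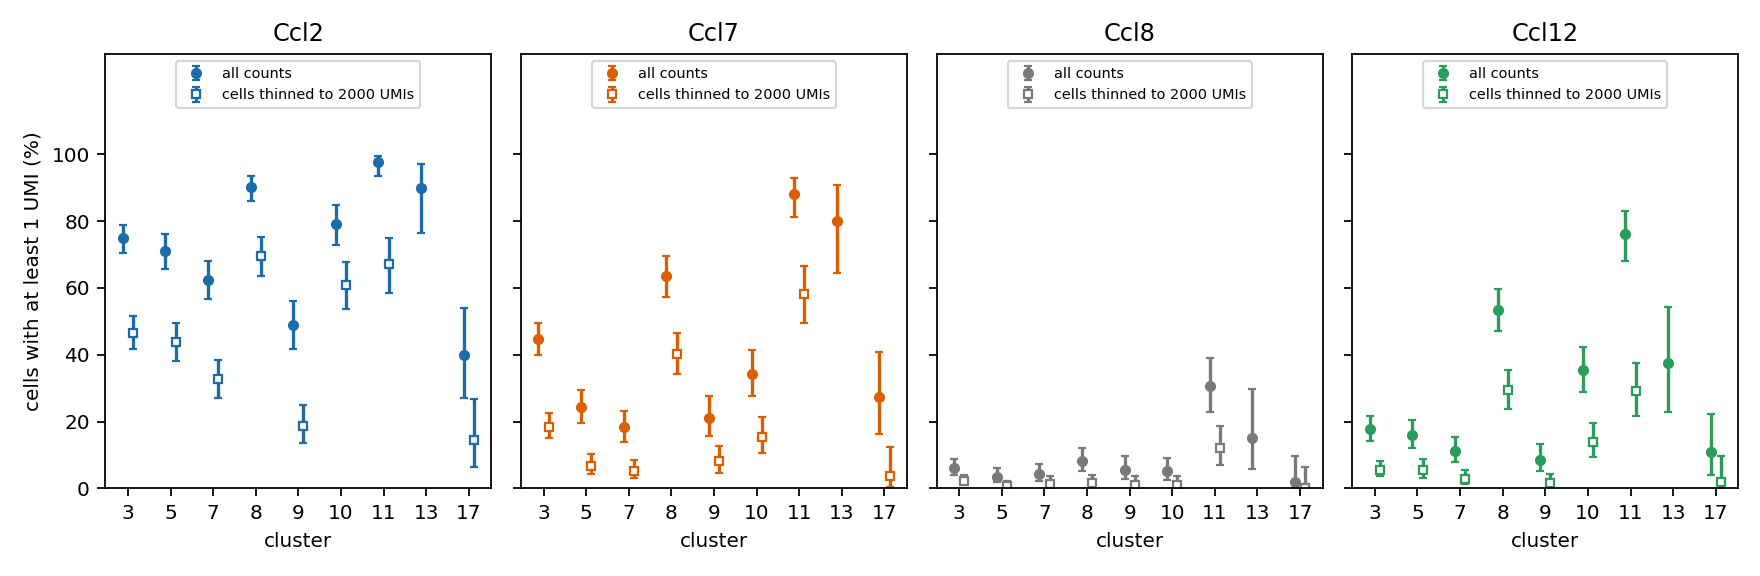
Percent of tumor tissue cells of each cluster with at least 1 UMI of Ccl2, Ccl7, Ccl8 and Ccl12, from all counts (filled) and after thinning each cell to 2000 UMIs (open), with exact 95% binomial intervals; cluster 13 has too few deep cells for an open point. Clusters 8 and 11 are level for Ccl2 and Ccl12 once thinned, whereas cluster 11 is higher for Ccl7 and Ccl8.

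The mix of the members changed from cluster to cluster. For every 100 Ccl2 UMIs there were 78.8 Ccl7 UMIs in cluster 11 (75.4 to 82.3), 48.1 in cluster 8 (45.9 to 50.4), 20.4 in cluster 10 (18.6 to 22.4), 21.9 in cluster 3 (20.2 to 23.6), 7.18 in cluster 5 (5.96 to 8.58) and 7.07 in cluster 7 (5.49 to 8.99). On fewer counts it was 59.6 in cluster 13 (44.7 to 79.0), 25 in cluster 17 (13.2 to 44.6) and 23.1 in cluster 9 (16.8 to 31.3). Clusters 8 and 10, at 1705 and 1524 CPM of Ccl2, thus differed more in Ccl7 than in Ccl2. For Ccl12 the figures per 100 Ccl2 UMIs were 33.6 in cluster 11 (31.7 to 35.6), 19.4 in cluster 8 (18.1 to 20.7), 14.2 in cluster 10 (12.7 to 15.9), 4.79 in cluster 3 (4.07 to 5.59), 3.92 in cluster 5 and 3.24 in cluster 7. They were 17.6 in cluster 13, 13.3 in cluster 17 and 7.42 in cluster 9, again on fewer counts.

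Ccl7 and Ccl12 kept closer to each other. Per 100 Ccl12 UMIs there were 248 Ccl7 UMIs in cluster 8 (231 to 267) and 235 in cluster 11 (221 to 249). The ratio was lower in cluster 10, at 143 (126 to 164), and higher in cluster 3, at 457 (386 to 543). Without the richest cell of each gene the 4 values were 245, 259, 132 and 484. So clusters 8 and 11, which differed in Ccl7 per Ccl2, were alike in Ccl7 per Ccl12, and cluster 10 leaned toward Ccl12. That likeness was not particular to clusters 8 and 11. On fewer counts, the ratio was 183 in cluster 5 (136 to 248), 218 in cluster 7 (143 to 340) and 312 in cluster 9 (178 to 574). It was 338 in cluster 13 (212 to 557) and 188 in cluster 17 (74.6 to 511). Each of these intervals overlapped those of clusters 8 and 11.

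**Figure D4:**
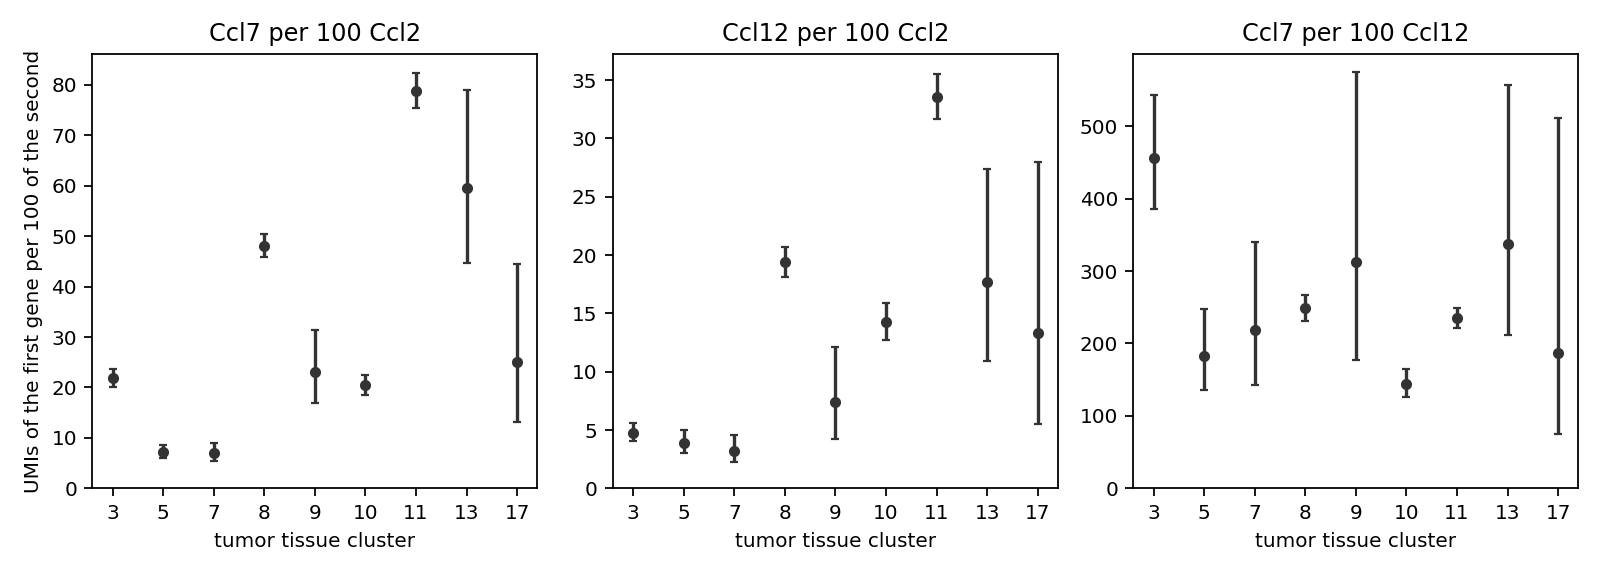
UMIs of Ccl7 and Ccl12 per 100 UMIs of Ccl2, and of Ccl7 per 100 of Ccl12, summed over the tumor tissue cells of each cluster, with exact 95% counting intervals. Ccl7 per Ccl2 runs from 7.07 in cluster 7 to 78.8 in cluster 11, whereas Ccl7 per Ccl12 is 248 and 235 in clusters 8 and 11.

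Much of each message came from few cells. In tumor tissue 122 cells (6.36%) held 50% of the Ccl2 UMIs, 47 cells (2.45%) that share of Ccl7, 33 cells (1.72%) that of Ccl12 and 8 cells (0.417%) that of Ccl8. The richest single cells had 246 UMIs of Ccl2, 187 of Ccl7, 215 of Ccl12 and 67 of Ccl8. The 47 Ccl7 cells were in clusters 11 (29 cells), 8 (14) and 10 (4), and the 33 Ccl12 cells in the same clusters (16, 13 and 4). Of the 8 Ccl8 cells 7 were in cluster 11 and 1 in cluster 10. The 122 Ccl2 cells were spread wider, with 38 in cluster 11, 36 in cluster 8, 18 in cluster 3, 15 in cluster 10, 11 in cluster 5 and 4 in cluster 7. Cells were ranked here by UMIs without scaling for depth, and the median was 29673 UMIs in cluster 11 against 9451 in cluster 8.

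These rich cells overlapped in part, and no overlap expected from depth was computed. Of the 47 cells that held most Ccl7, 37 were among the 122 richest in Ccl2 (78.7% of the former, 30.3% of the latter) and 18 were among the 33 richest in Ccl12 (38.3% and 54.5%). Ccl8 shared 4 of its 8 cells with Ccl2, 3 with Ccl7 and 2 with Ccl12. Because intervals on summed UMIs treat each molecule as independent, they are too narrow where so few cells hold the counts.

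In all counts, 356 tumor tissue cells had none of the 4 members, 718 had 1, 498 had 2, 292 had 3 and 53 had all 4. Of the 53, 34 were in cluster 11 and 11 in cluster 8. Among cells with Ccl7, 85.4% also had Ccl2 (82.7 to 87.8), against 64.8% of cells without Ccl7 (61.9 to 67.5). Ccl12 was found in 41.9% of cells with Ccl7 (38.4 to 45.5) and 16.2% of those without (14.2 to 18.5). Among cells with Ccl8, 89.9% had Ccl2 against 71.6% without, 60.4% had Ccl7 against 38.0%, and 48.9% had Ccl12 against 24.6%. Such gaps also reflect clusters and depth, so the pairs were counted again with each cell at 2000 UMIs and against the number expected from the shares within each cluster.

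By that measure the intervals of 3 pairs lay above 1. Ccl7 and Ccl12 were both found in 103 of 1871 cells against 64.8 expected, a ratio of 1.59 (1.30 to 1.93). Ccl2 and Ccl7 were found together in 259 cells against 200.1 (1.29, 1.14 to 1.46), and Ccl2 and Ccl12 in 150 against 118 (1.27, 1.07 to 1.49). The pairs with Ccl8 stood at 1.12 (0.715 to 1.66) with Ccl2, 1.04 (0.571 to 1.75) with Ccl7 and 1.17 (0.503 to 2.30) with Ccl12. Only 39 cells had Ccl8 at this depth, and all 3 of these intervals include 1. Ccl7 and Ccl12 met in 50 cells of cluster 8 against 30.2 expected, in 30 of cluster 11 against 22.7, in 12 of cluster 10 against 4.15, in 7 of cluster 3 against 4.44 and in 2 of cluster 5 against 1.16. In clusters 7, 9 and 17, where under 1 cell was expected, they met in 0.

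The size of the excess depended on the count. From all counts the ratio was 1.17 for Ccl7 and Ccl12 (1.05 to 1.31), 1.07 for Ccl2 and Ccl7 (0.994 to 1.16) and 1.08 for Ccl2 and Ccl12 (0.981 to 1.18). At 5000 UMIs it was 1.28 (1.09 to 1.5), 1.18 (1.07 to 1.31) and 1.12 (0.985 to 1.26). The interval thus lay above 1 at all 3 depths for Ccl7 with Ccl12, and not for the other 2 pairs. The ratio has an upper limit, which falls as a gene is found in more cells. On all counts Ccl2 was found in 1398 of 1917 cells, Ccl7 in 759 and Ccl12 in 506. Pairs with Ccl2 therefore had less room above 1, the more so at greater depth, and the ratios do not rank the pairs. With at least 2 UMIs of each gene at 2000 UMIs it was 2.61, 1.64 and 1.62. Leaving out the deepest 2% of cells, the ratios were 1.62, 1.29 and 1.26. Cluster 11 cells had a median of 29673 UMIs against 9451 in cluster 8, so doublets of shallower cells need not be among those left out. The part of doublets in the ratios was not tested. Over single cells the Pearson correlation of log counts per 10000 UMIs was 0.515 for Ccl2 with Ccl7, 0.491 for Ccl7 with Ccl12, 0.409 for Ccl2 with Ccl12 and at most 0.186 for a pair with Ccl8 (1917 cells of 1 library, which share depth and clusters).

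**Figure D5:**
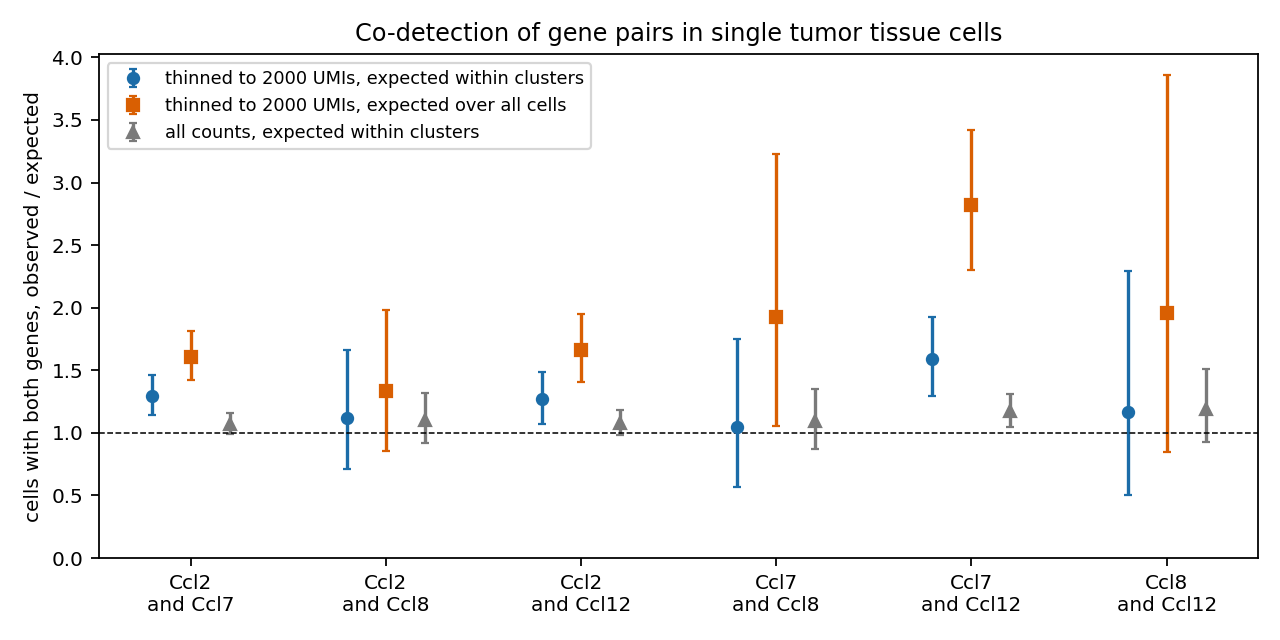
Tumor tissue cells with a UMI of both genes of a pair, divided by the number expected, for the 6 pairs of members, with exact 95% Poisson intervals; the dashed line marks 1. Circles (2000 UMIs per cell, expected within clusters) are highest for Ccl7 and Ccl12 at 1.59, squares leave out the clusters and triangles use all counts. Pairs with Ccl2, the member found in most cells, have less room above 1.

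Ccr2, the receptor named above for Ccl2, Ccl7 and Ccl12, was at 632 CPM in tumor tissue and between 715 and 1758 CPM in the other libraries. It did not pass 2-fold against tumor-bearing blood (0.689, 0.666 to 0.714). Ccrl2, an atypical receptor (349 against 5.75 CPM), and Ccr1 (414 against 56.4 CPM) were at least 2-fold higher in tumor tissue. Ccr8, a receptor for mouse Ccl8, and the scavenging receptor gene Ackr2 were at 0 UMIs in every library. Within the tumor Ccr2 ran from 471 CPM in cluster 10 to 766 CPM in cluster 3, so it was counted in every cluster that held Ccl2, Ccl7 and Ccl12.

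Among 13 other CC chemokine genes, 6 were measured against tumor-bearing blood and 5 were at least 2-fold higher in tumor tissue. They were Ccl4 (436 against 0.884 CPM), Ccl3 (127 against 1.55 CPM), Ccl24 (34.2 against 1.11 CPM), Ccl5 (212 against 33.2 CPM) and Ccl9 (972 against 413 CPM). Ccl6 was not past 2-fold, at 1263 against 1049 CPM. Ccl11 and Ccl1, which lie in or beside the row of members on chromosome 11, were at 0.720 CPM (15 UMIs) and 0 UMIs in tumor tissue. The level in tumor tissue was thus not shared by every gene of the locus.

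Genes of the pathways known to act on the members were counted in the same comparison, where 614 of all 5648 measured genes were higher and 533 lower with a median log2 ratio of -0.13. Of NF-kB and AP-1 genes 11 of 15 measured were higher and 0 lower (median 1.93), led by Il1b (27.2-fold), Tnfaip3 (12.2-fold), Tnf (12.1-fold) and Atf3 (10.9-fold), while the subunits Rela and Nfkb2 were at 1.09 and 1.06 times the blood level. Of interferon response genes 9 of 12 were higher and 0 lower (median 1.94), led by Cxcl9 (65.9-fold), Rsad2 (12.8-fold) and Cxcl10 (12.4-fold). Of genes that destabilise such mRNAs or answer to glucocorticoids 4 of 8 were higher and 0 lower (median 0.62). The 4 were Dusp1 (12.3-fold), Zc3h12a (7.26-fold), Zfp36l1 (4.75-fold) and Zfp36 (2.77-fold). The other 4 were not past 2-fold and all lay below the blood level, from 0.673 (Fkbp5) to 0.851 times. Cells of different kinds entered each library, so these ratios hold for the libraries as a whole.

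The same lists were counted inside the tumor. In cluster 10 the interferon list had 11 of 12 genes at least 2-fold higher than in the other cells (Rsad2 at 4308 CPM, Cxcl10 at 8699 CPM), in cluster 8 it had 3 of 12 (Ifit2, Ifit3 and Cxcl10), and in cluster 11 it had 9 of 12 lower. Ccl7 was at 311, 820 and 866 CPM in those clusters, and Ccl2 at 1524, 1705 and 1100 CPM. Clusters 3 and 7 had 11 of 12 interferon genes lower, with Ccl2 at 792 and 428 CPM. Cluster 9 had 9 of 12 lower, with Ccl2 at 131 CPM, and cluster 13 had 8 of 12 lower, with Ccl2 at 2039 CPM. Cluster 5 had 1 of 12 higher, with Ccl2 at 717 CPM. Cluster 17 had 1 higher and 3 lower, with Ccl2 at 98.2 CPM. In cluster 10 Ccl7 was 0.812 times its level in the other cells (0.743 to 0.887). Ccl2 was 1.75 times its level there (1.68 to 1.82) and Ccl12 1.43 times (1.28 to 1.59). Ccl8 was 1.85 times (1.42 to 2.39), a value that rested on its richest cell. The NF-kB and AP-1 list had 0 of 15 genes past 2-fold in either direction in clusters 3, 5, 7, 8, 10 and 11. It had 2 of 15 lower in cluster 9, 1 higher and 1 lower in cluster 13, and 1 higher in cluster 17. These counts describe the clusters, and the part of either pathway in the members' levels was not tested.

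The genes whose levels over the 9 clusters were most like each member were found by Pearson correlation of log2(CPM + 10) among 6459 genes. For Ccl7 the first was Ccl12 (r = 0.974), followed by P2rx7, Fam3c, Grn and Sh3bp2, and for Ccl12 the first was Ccl7, followed by Dnajc13, Slc28a2, Ankfy1 and Dync1h1. For Ccl2 they were Mbnl2 (0.967), Slc7a8, Tlr13, Txn1 and Maf, with no other member among the first 5. For Ccl8 they were Ch25h (0.959), Ctla2b, Dnajc13, Ctla2a and Tcf4, of which 2 stayed in its first 5 with a pseudo-count of 1. Without cluster 13 the pair of Ccl7 and Ccl12 still ranked first for each other (0.971), while the first gene became Med15 for Ccl2 and Gabpa for Ccl8. With 9 points, or 8, from 1 library these values only describe.

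Over single tumor tissue cells the 3 members Ccl2, Ccl7 and Ccl12 were each other's 2 most alike genes among the same 6459. Next came C3ar1 (0.376), Ms4a7 and Fcgr1 for Ccl2, Ms4a7 (0.398), C1qc and C1qb for Ccl7, and Ms4a7 (0.295), C1qb and C1qa for Ccl12. Ccl8 had another set, Gas6 (0.289), Pf4, Cbr2, Folr2 and Nacc2; Folr2 was among the macrophage markers. Ms4a7 and the complement genes were among the 11 macrophage markers, and these correlations were weak.

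Surface tags gave a readout apart from the RNA. In counts per 10000 tags of a cell, the antibody to the Fc receptors CD16 and CD32 had a median of 575 in cells with a Ccl7 UMI at 2000 UMIs against 324 in cells without, 566 against 336 for Ccl12, 702 against 347 for Ccl8 and 389 against 331 for Ccl2. Ly-6C, the surface mark of classical monocytes, went the other way, with 1205 against 1939 for Ccl7, 1289 against 1865 for Ccl12 and 1180 against 1828 for Ccl8, while for Ccl2 it was 1791 against 1833. Cells with the 3 rarer members thus carried more Fc receptor tags and fewer Ly-6C tags, and for Ccl2 the Fc receptor tag was higher by a smaller step.

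Clusters differed in the same tags, with Ly-6C medians of 737 in cluster 11 and 2538 in cluster 9, and Fc receptor medians of 1079 in cluster 11 and 267 in cluster 7. The mean log2 difference of the Fc receptor tag was 0.64 over all cells and 0.12 within clusters for Ccl7, 0.55 and 0.17 for Ccl12, and 0.20 and -0.05 for Ccl2. That of Ly-6C was -0.44 and -0.11 for Ccl7 and -0.35 and -0.10 for Ccl12. For Ccl2 it was -0.03 over all cells and 0.12 within clusters, higher in 7 of 7 clusters. CD88, the receptor for complement C5a, was higher in cells with Ccl2 in all 7 clusters compared (0.12 within clusters, medians 130 against 105). For Ccl7 and Ccl12 both tags thus differed less within clusters than over all cells, and for Ccl2 both changed sign.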

How the data were processed

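Single cells of 7 libraries had been prepared with 3' chemistry, per the labels' protocols. Per the submitters' processing notes, Cell Ranger and the mm10 build were used. For versions, annotation and cell filters, nothing is given in the sources used here. Deposited by the authors were UMI counts for 25127 genes and antibody tag counts for 47 antibodies in 4290 cells. Their metadata gave library, cluster and a mitochondrial fraction, which the authors deposited as a fraction of UMIs; 237 further metadata cells had no counts and were left out.

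Counts were summed per library or cluster and scaled to 1000000 UMIs with Python 3.11.15, numpy 2.4.6, pandas 2.3.3 and scipy 1.17.1. A gene was measured with 30 UMIs in both groups together and 20 CPM in one, and called at 2-fold. Ratios have exact conditional Poisson intervals and shares Clopper-Pearson intervals. List medians used a pseudo-count of 1 CPM. Cells were thinned once, with a fixed seed, and no doublet caller was run. Named genes were the members, the listed pathway genes past 2-fold (up to 6 a list, largest first), receptors (1 listed gene is not reported here), the 5 genes most like each member and up to 5 antibodies that differed most, with Ly-6C; clusters 4 and 16, the subunits Rela and Nfkb2, Ccl6, Ccl11 and Ccl1 were picked after their values were seen. The members and lists were chosen with earlier results of these data known.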

Additional observations from a re-analysis of the deposited data

How the results depend on the processing

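Recounts changed the scaling, cell weight, depth, minimum or fold. The members called against tumor-bearing tissues (4 of 4 in each) were the same in all 24 recounts, and those against naive mice (0) in all 21. In the latter, Ccl7, Ccl8 and Ccl12 had at most 4 UMIs in a library and could reach no minimum used. For these members the 0 was fixed in advance. Over the clusters, 10 higher pairs became 5 at 3-fold and 19 lower pairs became 12 with cells thinned to 5000 UMIs; the other 12 counts stayed within 1.5 times. The log2 ratio of Ccl2 in cluster 13 turned from 1.14 to -0.59 at 5000 UMIs, a depth that only 1 of its 40 cells reached. Shares of cells with a UMI moved in 19 recounts and stayed in 3, and co-detection ratios moved in 11, turned in 1 and stayed in 24. Ccl2 with Ccl7 was 1.07 unthinned, 1.64 with at least 2 UMIs of each and 1.61 without clusters in the expected number. Ccl2 with Ccl12 was 1.08 unthinned, 1.12 at 5000 UMIs, 1.62 with at least 2 UMIs and 1.66 without clusters. Ccl7 with Ccl8 was 1.92 without clusters, and Ccl8 with Ccl12 was 2.49 with at least 2 UMIs. Ccl7 with Ccl12 was 1.17 unthinned, 1.28 at 5000 UMIs, 2.61 with at least 2 UMIs and 2.82 without clusters. Ccl2 with Ccl8 turned to 0.95 with at least 2 UMIs, from 4 cells. The causes were not tested. Alternatives without cluster 13 or cluster 16 were chosen after seeing the data. No paired analysis was possible because each group was 1 library. Depth limits bone marrow most, where a count of 0 in the tumor-bearing library allows a level of up to 4.86 CPM.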
